A study of Mus musculus with 8 samples.

Results

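Line 4a1CK was set against line 4a3, 1 array each, among the 8 mouse arrays of the series. Both are lines of induced hepatocyte-like cells (iHeps), fibroblasts turned into an epithelial, liver-like state by delivered transcription factors. Each gene was represented by its brightest probe set, taken as the highest mean of all 8 arrays among probe sets with 1 symbol, and a gene was counted where the log2 difference, 4a1CK minus 4a3, was 2 or more in either direction, a 4-fold difference. This gave 226 of 17097 genes. With 1 array per line there is no replicate error and no test, and the differences describe these arrays. How few arrays there are sets how precise any value here can be.

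Line 4a1CK came from fibroblasts transduced by retrovirus with Hnf4a, Foxa1, c-Myc and Klf4, and its colonies appeared within 5 days. Line 4a3 received Hnf4a and Foxa3 without c-Myc or Klf4, and its colonies appeared within 2 weeks. Line 4a3CK, given beside them, received Hnf4a, Foxa3, c-Myc and Klf4, with colonies within 5 days. All lines were at passage 10 and were grown on collagen in hepatocyte medium with dexamethasone, nicotinamide, insulin-transferrin-selenium, FGF4, HGF and EGF. Each factor set is represented by 1 established line, and the strain and sex of the fibroblasts behind a line are not given in the labels. The primary hepatocyte (PH) arrays, called PH 1, PH 2 and PH 3 here, hold cells isolated from livers of male C57/B6 mice aged 8 to 10 weeks and then cultured in the same medium. The mouse embryonic fibroblast (MEF) arrays, MEF 1 and MEF 2, hold C57/B6 fibroblasts of embryonic day 13.5, with heads and internal organs removed as the label of MEF 1 states. The labels do not say whether arrays of a cell type came from separate animals or cultures. Because 4a1CK and 4a3 differ in the Foxa member and also in c-Myc and Klf4, in the speed of colony formation and in line of descent, these differences cannot be told apart and no factor can be credited with a result.

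Hepatocytes secrete most plasma proteins, among them albumin, fibrinogen, transferrin and alpha-1-antitrypsin, and this output is a common measure of how far a reprogrammed cell has gone towards liver. Hnf4a is a nuclear receptor at the centre of the hepatocyte gene network, and the Foxa proteins are pioneer factors that open chromatin at liver genes. c-Myc drives growth and ribosome production, and Klf4 is a zinc finger factor of epithelia. On the way from fibroblast to epithelium, matrix genes are usually switched off while keratins, desmosomes and other epithelial junctions are built. The series set established lines beside starting and target cells across the transcriptome.

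The lines had similar array levels. The median log2 value over all probe sets was 4.43 in 4a1CK and 4.45 in 4a3, against 4.23 to 5.06 over the other 6 arrays, with PH 3 the highest. Control probe sets for sequences not of mouse origin reached 4.45 in 4a1CK and 4.47 in 4a3, and a gene at or under such a value is written as in the background range. Of 117 genes lower in 4a1CK, 43 had their 4a1CK value in that range, and of 109 higher genes, 37 had their 4a3 value there, so the size of these differences is limited by the background. The difference between 3' and 5' probe sets for Actb, a sign of RNA quality, was 0.94 in 4a1CK and 1.43 in 4a3, the highest of the 8 arrays, with 0.51 to 0.71 over the other 6. For Gapdh the same difference was 0.19 in 4a1CK and 0.31 in 4a3, within the 0.12 to 0.72 of the other 6 arrays. Hybridization controls averaged 8.96 in 4a1CK and 9.14 in 4a3. Whether these gaps have a part in the results was not tested.

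The hepatocyte label of both lines was checked against 8 defining markers. Their median was 4.69 in 4a1CK and 6.0 in 4a3, against 10.00, 9.86 and 9.56 in the PH arrays and 4.52 and 4.35 in the MEF arrays. In the background range were 3 of the 8 in 4a1CK and 1 in 4a3. By the median of these markers 4a1CK was close to fibroblasts, and 4a3 stood between fibroblasts and hepatocytes. Single markers of 4a3 were uneven. Alb, Serpina1a and Apoa1 stood at 9.30, 9.63 and 12.82 in 4a3. Hnf4a, Cyp3a11, Cps1 and Asgr1 stood at 6.04, 4.92, 5.06 and 4.00 in 4a3, each within 1 of a MEF array. Ttr stood at 5.96 in 4a3, against 4.38 and 4.40 in MEF. Apoa1 was the 1 marker far above the background range in 4a1CK. Asgr1, a receptor of the hepatocyte surface, was in that range in the hepatocyte arrays too, at 3.26, 3.16 and 4.07. Cyp3a11 was near the MEF arrays in PH 1 and PH 2, at 4.83 and 5.03, with 8.63 in PH 3.

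Between 4a1CK and 4a3, 109 genes were higher and 117 lower in 4a1CK, 1.32% of all genes measured, with 0.638% higher and 0.684% lower. The median difference over all genes was -0.01 and the standard deviation across genes 0.57. The 226 genes ranged from Fgb, the beta chain of fibrinogen, at -8.85 to Efemp1, the matrix glycoprotein fibulin-3, at 7.39. Of the lower genes 48 passed 3 and 21 passed 5, and of the higher genes 39 passed 3 and 5 passed 5. At the edge of the count, Serpina1d at -2.0 was the last lower gene included, and Hoxd8, unrounded just under the threshold at 2.0, the first higher gene left out.

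**Figure D1:**
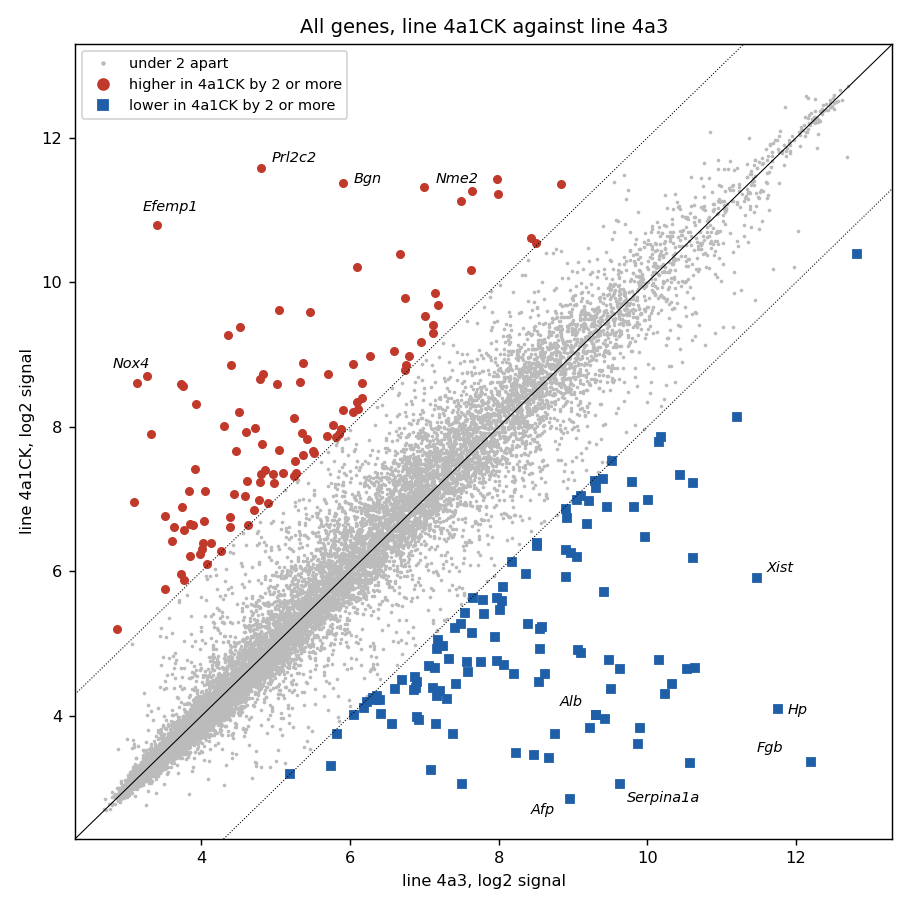
Log2 signal of each of 17097 genes in line 4a1CK (vertical axis) and line 4a3 (horizontal axis), with the solid line at equality and dotted lines at a difference of 2. The 109 genes higher in 4a1CK are circles and the 117 lower genes are squares, with Fgb (3.36 in 4a1CK, 12.21 in 4a3) and Efemp1 (10.79 in 4a1CK, 3.40 in 4a3) farthest from equality.

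Arrays of the same cell type gave similar counts at the same size, apart from PH 1 and PH 2. PH 1 and PH 3 differed by 2 or more at 257 genes (1.5% of genes), PH 2 and PH 3 at 247 (1.44%), PH 1 and PH 2 at 2 (0.0117%) and MEF 1 and MEF 2 at 239 (1.4%). PH 1, PH 2 and MEF 1 have later sample numbers in the series than PH 3, MEF 2 and the lines. Each pair of 1 cell type with a similar count joins an earlier and a later sample. PH 1 and PH 2, both later, had 0 genes at 3 or more. Whether this has a part in the counts was not tested. The array median of PH 3 stood above those of PH 1 and PH 2. After subtracting array medians the count for PH 1 and PH 3 was 121, while that for 4a1CK and 4a3 was 225. At larger sizes the pair of lines held more genes than the pairs of 1 cell type. With medians subtracted, 46 genes differed by 4 or more between 4a1CK and 4a3, against 4 between PH 1 and PH 3 and 28 between MEF 1 and MEF 2. At 5 or more the counts were 24, 0 and 10 in the same order. Of the 226 genes, 36 (15.9%) also differed by 2 or more within MEF or within PH, against 528 (3.09%) of all genes.

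**Figure D2:**
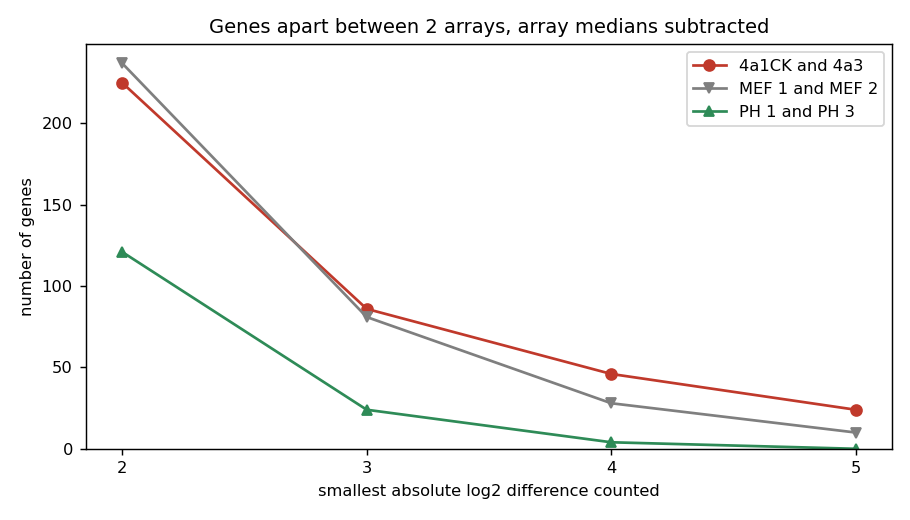
Number of genes (vertical axis) with an absolute log2 difference of at least the size on the horizontal axis, after subtracting array medians, for 4a1CK and 4a3 (circles), PH 1 and PH 3 (upward triangles) and MEF 1 and MEF 2 (downward triangles). The pair of lines starts at 225 genes, beside 121 for PH 1 and PH 3 and 237 for MEF 1 and MEF 2, and still has 24 genes at 5, against 0 and 10. PH 1 and PH 2, with 2 genes at 2 and 0 at 3, are not drawn.

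Secreted plasma proteins were the group most often lower in 4a1CK. Of 32 measured members of the list 14 were lower by 2 or more and none was higher, beside 0.684% and 0.638% of all genes. The 14 include the near-identical Serpina1 genes a to d, read below as 1 observation. The list median was -0.93, beside -0.01 over all genes. For 12 of the 14, the 4a1CK value lay within 1 of a MEF array, and the exceptions were Rbp4 and Apoa1, which had a higher signal in 4a1CK. In 4a3, 7 of the 14 lay within 1 of a PH array. The 14 were picked as lower in 4a1CK than in 4a3, which largely fixes these positions, so they are a description. Over all 32 measured members the median level was 4.09 in 4a1CK and 5.24 in 4a3, against 9.61 in PH and 4.04 in MEF. The list was chosen with earlier results of these data known.

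Fgb stood at 3.36 in 4a1CK and 12.21 in 4a3, with 10.92 in 4a3CK, 11.83, 11.83 and 12.08 in the PH arrays and 2.93 and 3.01 in the MEF arrays, a difference of -8.85 or 462-fold. In 4a3 Fgb therefore lay at the level of the hepatocytes, and in 4a1CK close to the fibroblasts. Fgg, the gamma chain of fibrinogen, stood at 3.46 in 4a1CK and 8.47 in 4a3, with 3.54 in 4a3CK, 10.10, 9.79 and 10.92 in PH and 3.40 and 3.33 in MEF (difference -5.02). Fga, the alpha chain, given here after its values were seen, was low in both lines, at 3.60 in 4a1CK and 4.64 in 4a3, against 10.75, 10.75 and 10.93 in PH and 3.37 and 3.29 in MEF (difference -1.03). Of the 3 fibrinogen chains, 4a3 thus held 2 with a clear signal and 4a1CK none.

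Albumin (Alb), the main plasma protein, stood at 4.01 in 4a1CK and 9.30 in 4a3, with 3.80 in 4a3CK, 11.94, 11.87 and 11.90 in PH and 4.12 and 4.01 in MEF (difference -5.29, 39.2-fold). Alpha-fetoprotein (Afp), the fetal counterpart of albumin, stood at 2.85 in 4a1CK and 8.96 in 4a3, with 2.86 in 4a3CK, 10.21, 10.16 and 9.92 in PH and 3.05 and 3.22 in MEF (difference -6.11). For both genes 4a3 was the line with a signal, while 4a1CK and 4a3CK lay with the fibroblasts. The probe sets of Afp did not all show this, with differences of -6.11 to 0.07 over its 5 probe sets and a mean of -3.01.

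The alpha-1-antitrypsin genes of the mouse, inhibitors of neutrophil elastase, are near-identical copies whose probe sets may bind each other's transcripts. Serpina1a stood at 3.06 in 4a1CK and 9.63 in 4a3, with 7.38 in 4a3CK, 11.08, 10.75 and 11.12 in PH and 2.98 and 3.44 in MEF (difference -6.57). Serpina1b differed by -6.06, Serpina1c by -2.97 and Serpina1d by -2.0. Their separate values are uncertain for the reason given, and the 4 genes should be read as 1 observation.

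Carriers and other secreted proteins followed. Itih2, a heavy chain of the inter-alpha-trypsin inhibitor, stood at 4.30 in 4a1CK and 10.24 in 4a3, with 8.83 in 4a3CK, 9.46, 9.31 and 8.05 in PH and 4.71 and 4.68 in MEF (difference -5.94). Transferrin (Trf), the iron carrier, stood at 4.58 in 4a1CK and 8.21 in 4a3, with 11.68 in 4a3CK, 12.25, 12.27 and 12.88 in PH and 4.48 and 4.90 in MEF (difference -3.63). Hemopexin (Hpx), which binds free heme, stood at 4.92 in 4a1CK and 8.56 in 4a3, with 8.01 in 4a3CK, 11.98, 12.17 and 12.23 in PH and 4.73 and 4.81 in MEF (difference -3.64). For these 3 genes 4a1CK was at the level of fibroblasts, while both 4a3 and 4a3CK had a signal. Fetub, a secreted protease inhibitor, stood at 4.24 in 4a1CK and 7.31 in 4a3, with 4.50 in 4a3CK, 6.40, 6.16 and 6.04 in PH and 4.06 and 4.14 in MEF.

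Rbp4 and Apoa1 had an intermediate or high signal in 4a1CK. Rbp4, the retinol carrier, stood at 8.14 in 4a1CK and 11.21 in 4a3, with 7.52 in 4a3CK, 10.86, 10.82 and 11.64 in PH and 4.17 and 3.71 in MEF (difference -3.07). Apoa1, the scaffold protein of high-density lipoprotein, stood at 10.39 in 4a1CK and 12.82 in 4a3, with 12.66 in 4a3CK, 10.45, 10.24 and 9.35 in PH and 5.30 and 4.29 in MEF (difference -2.43). In 4a1CK Apoa1 was thus at the level of PH 1 and PH 2, and 4a3 lay above all hepatocyte arrays. Among the other 18 members, transthyretin (Ttr), a thyroxine carrier, stood at 4.66 in 4a1CK and 5.96 in 4a3 against 11.20, 10.93 and 11.65 in PH. The mean over the probe sets of Ttr gave a larger difference of -2.53, against -1.30 for the probe set used. The other 16 after Ttr and Fga differed by -0.83 to 0.11, and many of them were low in both lines.

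**Figure D3:**
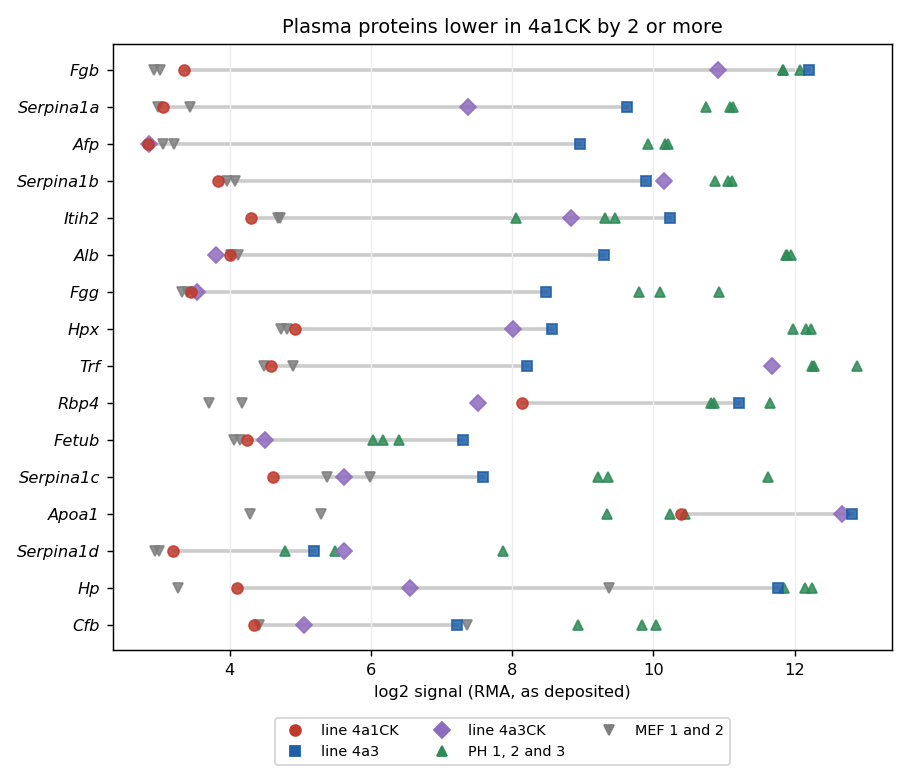
Log2 signal (horizontal axis) in each of the 8 arrays for the 14 secreted plasma proteins, and for haptoglobin (Hp) and complement factor B (Cfb), that were lower in 4a1CK by 2 or more, with a grey bar joining 4a1CK and 4a3. In 4a1CK 14 of these 16 genes lie within 1 of a MEF array, and Rbp4 and Apoa1 lie far above both. The Serpina1 genes among them are near-identical copies, to be read as 1 observation.

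The promoters of Fgb, Alb, Afp and Serpina1a are shown because these 4 lower genes hold the same short motif near the start, GTTAAT, the core of the site of the liver homeobox factor HNF1. Each sequence spans 250 bases before to 50 after the gene's start in the RefSeq annotation of GRCm38.p6, 5' to 3' on the gene's strand, and capitals mark the motif in either orientation (GTTAAT or ATTAAC). Fgb is on the minus strand (chr3:83049814-83050113), Alb on the plus strand (chr5:90460620-90460919), Afp on the plus strand (chr5:90490464-90490763) and Serpina1a on the minus strand (chr12:103863570-103863869).
Fgb: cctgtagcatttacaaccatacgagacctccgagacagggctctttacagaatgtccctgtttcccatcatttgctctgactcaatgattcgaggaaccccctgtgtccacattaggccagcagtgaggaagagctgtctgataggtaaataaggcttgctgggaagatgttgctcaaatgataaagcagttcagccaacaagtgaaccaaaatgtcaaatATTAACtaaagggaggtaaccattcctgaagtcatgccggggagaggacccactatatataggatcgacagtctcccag
Alb: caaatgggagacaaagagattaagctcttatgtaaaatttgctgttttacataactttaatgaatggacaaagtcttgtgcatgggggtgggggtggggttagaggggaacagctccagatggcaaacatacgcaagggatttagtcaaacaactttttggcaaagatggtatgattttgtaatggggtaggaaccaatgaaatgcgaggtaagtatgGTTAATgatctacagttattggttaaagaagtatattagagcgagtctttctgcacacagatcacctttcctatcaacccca
Afp: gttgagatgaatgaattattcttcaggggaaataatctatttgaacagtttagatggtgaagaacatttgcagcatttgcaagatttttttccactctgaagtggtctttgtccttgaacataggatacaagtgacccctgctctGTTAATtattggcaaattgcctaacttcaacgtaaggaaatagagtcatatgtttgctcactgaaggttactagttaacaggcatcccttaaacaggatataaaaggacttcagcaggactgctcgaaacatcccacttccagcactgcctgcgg
Serpina1a: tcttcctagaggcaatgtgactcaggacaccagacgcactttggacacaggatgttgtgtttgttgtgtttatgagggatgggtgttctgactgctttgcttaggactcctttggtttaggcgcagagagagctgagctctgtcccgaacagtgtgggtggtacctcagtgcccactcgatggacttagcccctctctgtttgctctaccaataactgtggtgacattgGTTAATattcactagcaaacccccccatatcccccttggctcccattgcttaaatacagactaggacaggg

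The first base of the motif lay 29 bases before the annotated start in Fgb, 32 in Alb, 105 in Afp and 21 in Serpina1a. Where transcription starts in these cells was not measured, so the distances are to the annotation alone. Of the 13 lower plasma protein genes with a promoter in the table, 7 (53.8%) held the motif on either strand, and 4 of these 7 are the Serpina1 copies. It was present in 4 of 14 promoters (28.6%) of plasma protein genes that were not lower. Over the genes counted here it was present in 14 of 87 promoters (16.1%) of lower genes and 2 of 81 (2.47%) of higher genes. All measured genes held it at 673 of 13605 (4.95%), and all promoters in the table at 1946 of 27025 (7.20%). The 14 include the 7 plasma protein genes above, 4 of them Serpina1 copies, so the 2 counts are not separate. A FOXA motif, TGTTTAC, was in 1 of 87 lower and 4 of 81 higher genes, beside 2.82% of measured genes, and the Myc E-box CACGTG in 7 of 87 lower and 10 of 81 higher genes, beside 9.0%. The sequence CAAAGTCCA, a site of HNF4, was in 1 lower and 2 higher genes, and the KLF motif GGGTGTGG in 4 of each. These are matches of letters in a window of 300 bases, counted on both strands with no overlap between motifs removed, and they show no binding.

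Acute phase and complement genes were lower at 2 of 27 measured members and higher at none, beside 0.684% and 0.638% of all genes. The list median was -0.11. Haptoglobin (Hp), which binds free hemoglobin, stood at 4.10 in 4a1CK and 11.76 in 4a3, with 6.56 in 4a3CK, 11.85, 12.15 and 12.25 in PH and 9.37 and 3.27 in MEF (difference -7.67). Its MEF arrays stood far apart, so the fibroblast level of Hp is not fixed by these arrays. Cfb, factor B of the alternative complement pathway, stood at 4.34 in 4a1CK and 7.22 in 4a3, with 5.05 in 4a3CK, 9.83, 10.03 and 8.93 in PH and 7.36 and 4.42 in MEF (difference -2.87), and its MEF arrays were also apart. Lcn2, a siderophore-binding acute phase protein, stood at 8.62 in 4a1CK and 10.37 in 4a3, a difference of -1.75.

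Liver transcription factors did not differ by 2 or more at any of 23 measured members, where 1.32% of all genes did, so this count says little. The list median was -0.02. The lowest was Prox1, a homeobox factor of early liver, at 3.14 in 4a1CK and 4.67 in 4a3, and the highest difference was that of Gata6, a zinc finger factor of endoderm, at 0.94. Of the delivered factors, Hnf4a stood at 5.50 in 4a1CK and 6.04 in 4a3 by its brightest probe set, with 9.59 in 4a3CK, 9.54, 9.48 and 9.78 in PH and 5.65 and 5.62 in MEF. Foxa1 stood at 4.01 in 4a1CK and 4.19 in 4a3, and Foxa3 at 3.92 in 4a1CK and 3.94 in 4a3, both in the background range although a different member was delivered to each line. Myc stood at 8.48 in both lines. Klf4 stood at 9.56 in 4a1CK and 10.60 in 4a3, with 9.43 in 4a3CK, 6.28, 6.30 and 7.50 in PH and 8.56 and 9.12 in MEF, so the line that was given no Klf4 had the higher signal. Whether these probe sets bind the delivered cDNAs is not given in the sources used here, so they do not check the factor sets in the labels.

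Counts for other liver functions were small, beside 0.684% lower and 0.638% higher over all genes, and say little about these lists. In the cytochrome P450 and conjugation list 1 of 38 measured members was lower and none higher (median -0.11). Sult1a1, a phenol sulfotransferase, stood at 6.48 in 4a1CK and 9.97 in 4a3, with 7.09 in 4a3CK, 8.98, 8.67 and 10.29 in PH and 4.91 and 4.51 in MEF (difference -3.49). Most members of that list were dim, and its median level was 4.18 in 4a1CK and 4.36 in 4a3, against 5.68 in PH and 3.89 in MEF. Among bile acid and transport genes 1 of 22 was lower and 1 higher. Cyp27a1, the sterol hydroxylase of the alternative route of bile acid synthesis, stood at 4.74 in 4a1CK and 7.76 in 4a3, with 8.47 in 4a3CK, 7.26, 7.22 and 8.55 in PH and 4.44 and 4.54 in MEF. Abcg2, an efflux pump, stood at 9.54 in 4a1CK and 7.01 in 4a3, with 7.07 in 4a3CK, 7.80 to 8.43 in PH and 7.87 and 8.18 in MEF, the highest of all arrays in 4a1CK.

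Some genes of liver were higher in 4a1CK, where 0.638% of all genes were higher and 0.684% lower. Apoe, a ligand of lipoprotein receptors, stood at 8.85 in 4a1CK and 6.75 in 4a3, with 4.89 in 4a3CK, 10.60, 10.56 and 11.27 in PH and 4.15 and 7.46 in MEF, the only 1 of 22 lipoprotein and fatty acid genes at 2 or more. Apoc3, an inhibitor of triglyceride clearance, was 1.76 higher. Among 28 genes of amino acid, urea and sugar metabolism Cth, which makes cysteine from cystathionine, was higher (8.23 in 4a1CK, 5.90 in 4a3, 7.69 to 8.64 in PH, 6.26 and 4.70 in MEF). Gldc, of the glycine cleavage system, was the 1 lower gene of that list (5.05 in 4a1CK, 7.19 in 4a3, 8.58 to 9.53 in PH, 4.21 and 4.62 in MEF).

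Nox4, a hydrogen peroxide-producing NADPH oxidase, stood at 8.61 in 4a1CK and 3.14 in 4a3, with 3.04 in 4a3CK, 7.99, 7.35 and 9.71 in PH and 5.27 and 4.72 in MEF (difference 5.47). Cyba, the membrane partner of the NADPH oxidases, stood at 8.57 in 4a1CK and 3.75 in 4a3, with 6.39 in 4a3CK, 6.01, 6.37 and 6.60 in PH and 9.30 and 8.98 in MEF (difference 4.82). Line 4a3 was in the background range for both. Slc40a1, the iron exporter ferroportin, stood at 8.66 in 4a1CK and 4.79 in 4a3, with 4.28 in 4a3CK, 9.93, 9.57 and 9.32 in PH and 4.94 and 5.61 in MEF (difference 3.88). Maob, a monoamine oxidase of the outer mitochondrial membrane, stood at 8.74 in 4a1CK and 4.83 in 4a3, with 4.01 in 4a3CK, 6.87, 7.34 and 8.49 in PH and 6.03 and 3.99 in MEF. For Nox4, Slc40a1 and Maob, 4a1CK was the only line near or above the hepatocyte arrays.

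Most of the matrix genes of fibroblasts that passed 2 were higher in 4a1CK. Of 38 measured members of the fibroblast and matrix list 6 were higher and 2 lower by 2 or more, beside 0.638% and 0.684% of all genes. The list median was 0.05, since the other members stayed under 2. The higher members were Fstl1, a secreted glycoprotein, at 4.45, Col5a2 at 3.69, Col3a1 at 3.29 (1.94 and 1.66 as the means over their probe sets), Prrx1 at 2.94, Snai2 at 2.06 and Loxl1 at 2.03 (0.99 as the mean). Col3a1, the chain of type III collagen, stood at 7.12 in 4a1CK and 3.83 in 4a3, with 3.78 in 4a3CK, 6.74, 6.40 and 5.47 in PH and 12.26 and 11.84 in MEF. Prrx1, a homeobox factor of mesenchyme, stood at 7.76 in 4a1CK and 4.82 in 4a3, with 5.77 in 4a3CK, 4.32, 4.46 and 5.68 in PH and 9.35 and 9.49 in MEF. Snai2, a repressor of epithelial genes, stood at 7.91 in 4a1CK and 5.85 in 4a3, with 4.87 in 4a3CK, 5.13, 5.27 and 4.35 in PH and 8.01 and 8.00 in MEF. In 4a1CK Snai2 was thus at the fibroblast level, while Col3a1, Col5a2 and Fstl1 lay well under it.

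The 2 lower members of the list were Mgp and Col6a3. Mgp, an inhibitor of calcification, stood at 4.64 in 4a1CK and 10.53 in 4a3, with 9.49 in 4a3CK, 3.69, 3.76 and 4.22 in PH and 11.09 and 10.19 in MEF (difference -5.89). Col6a3, a chain of type VI collagen, stood at 4.91 in 4a1CK and 9.07 in 4a3, with 4.53 in 4a3CK, 5.03, 4.59 and 5.44 in PH and 10.86 and 10.62 in MEF (difference -4.16). Of the lines, 4a3 was nearest to the fibroblasts for both genes, while 4a1CK was near the hepatocytes. Outside the list, 2 matrix genes were among the largest differences on the higher side. Bgn, the proteoglycan biglycan, stood at 11.38 in 4a1CK and 5.90 in 4a3, with 5.26 in 4a3CK, 7.77, 7.48 and 6.35 in PH and 12.02 and 11.39 in MEF (difference 5.48). Efemp1 stood at 10.79 in 4a1CK and 3.40 in 4a3, with 10.21 in 4a3CK, 7.87, 7.95 and 7.41 in PH and 7.68 and 9.0 in MEF (difference 7.39, 168-fold), and 4a3 alone was in the background range.

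Most defining fibroblast markers were at the background in both lines. Of 8 such markers 6 were in the background range in 4a1CK and all 8 in 4a3, with a median of 3.55 in 4a1CK and 3.54 in 4a3 against 10.95 and 9.32 in MEF 1 and MEF 2. Thy1, Dcn, Cdh11, Postn, Col1a1 and Col1a2 differed by -0.09 to 0.05 between the lines, and Col3a1 was the 1 marker at 2 or more. Col1a2 stood at 6.31 in MEF 1 and 3.66 in MEF 2, in the background range of MEF 2, so it says little here. In RNA from bulk cultures, fewer cells of a type and less RNA per cell cannot be told apart.

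Basement membrane genes were higher at 4 of 36 measured members of the list of matrix proteases, integrins and basement membrane, and none was lower (median -0.08). Over all genes 0.638% were higher and 0.684% lower. Nid1, the linker nidogen, stood at 11.12 in 4a1CK and 7.50 in 4a3, with 8.91 in 4a3CK, 11.21, 11.32 and 10.48 in PH and 10.98 and 11.19 in MEF (difference 3.63). Col4a1, a chain of type IV collagen, stood at 9.86 in 4a1CK and 7.15 in 4a3, with 7.16 in 4a3CK, 8.47, 8.01 and 10.14 in PH and 10.80 and 10.36 in MEF. Its partner chain Col4a2 was 2.45 higher and Col4a5 2.55 higher. Line 4a3 had the lowest value of all arrays for Nid1 and Col4a2. For Col4a1, 4a3 and 4a3CK were level, at 7.15 and 7.16, below all other arrays.

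Epithelial junction and keratin genes split between the lines (median -0.04). In 4a1CK 4 of 36 measured members were higher and 2 lower, beside 0.638% and 0.684% of all genes. Dsg2, a desmosomal cadherin, stood at 8.32 in 4a1CK and 3.93 in 4a3, with 7.49 in 4a3CK, 10.56, 10.45 and 11.26 in PH and 3.61 and 4.62 in MEF (difference 4.39, or 1.80 as the mean over its probe sets). Dsp, the desmosomal plaque protein desmoplakin, stood at 9.78 in 4a1CK and 6.75 in 4a3, with 7.59 in 4a3CK, 10.36, 10.25 and 9.79 in PH and 5.01 and 5.24 in MEF, and its probe sets differed by -0.08 to 3.89. Krt8, a keratin of simple epithelia, stood at 11.22 in 4a1CK and 7.99 in 4a3, with 10.83 in 4a3CK, 11.99, 11.78 and 12.48 in PH and 4.35 and 5.71 in MEF (difference 3.23). For Dsg2, Dsp and Krt8, 4a1CK was the line nearest to hepatocytes. Cldn1, a tight junction claudin, stood at 6.64 in 4a1CK and 3.88 in 4a3, with 3.86 in 4a3CK, 4.33, 4.10 and 5.36 in PH and 4.19 and 4.14 in MEF, the highest of all arrays in 4a1CK (1.77 as the mean over its probe sets).

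The 2 lower members were the cadherins Cdh1 and Cdh2. Cdh1, the E-cadherin of adherens junctions, stood at 3.89 in 4a1CK and 6.56 in 4a3, with 9.47 in 4a3CK, 8.93, 9.24 and 9.63 in PH and 3.28 and 3.52 in MEF (difference -2.67). Cdh2, N-cadherin, which hepatocytes and fibroblasts both carry, stood at 5.59 in 4a1CK and 8.04 in 4a3, with 3.38 in 4a3CK, 10.17, 10.06 and 10.02 in PH and 8.74 and 9.22 in MEF (difference -2.44). Cdh1 was in the background range in 4a1CK.

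**Figure D4:**
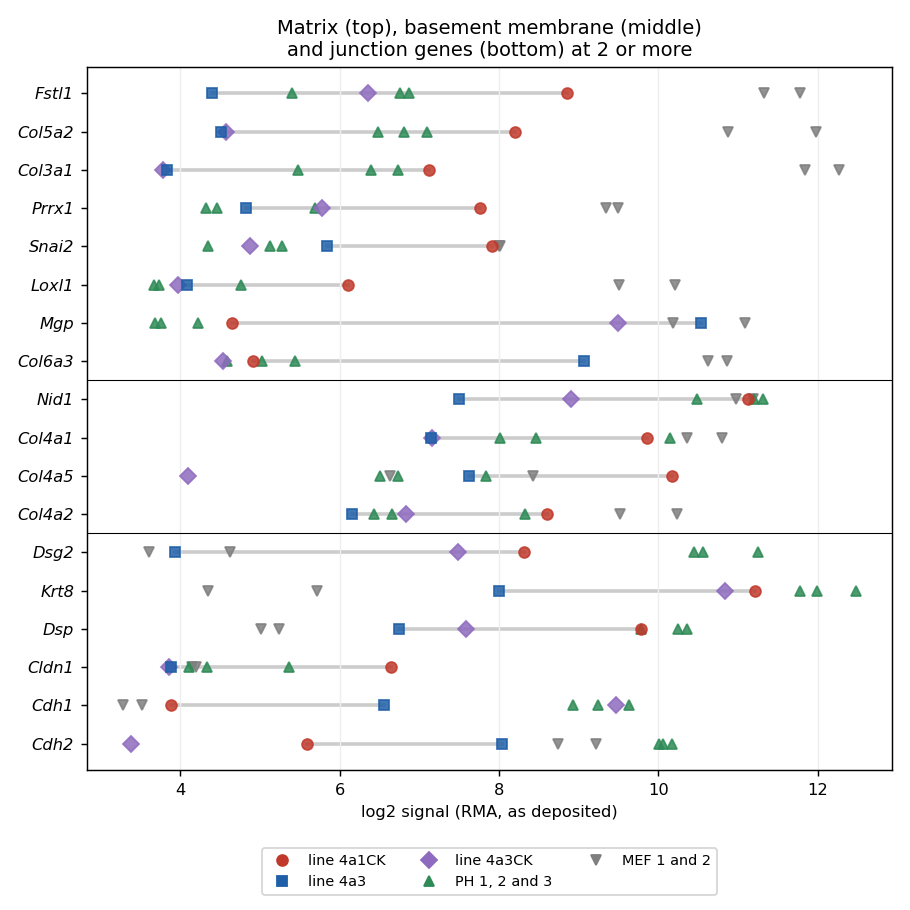
Log2 signal (horizontal axis) in each of the 8 arrays for the fibroblast and matrix (top), basement membrane (middle) and junction and keratin genes (bottom) at a difference of 2 or more, with a grey bar joining 4a1CK and 4a3. Circles for 4a1CK lie to the right of squares for 4a3 except at Mgp, Col6a3, Cdh1 and Cdh2.

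Growth genes of the fetus and imprinted genes gave large differences in both directions, with a list median of 0.43. Of 22 measured members 4 were higher and 2 lower, beside 0.638% and 0.684% of all genes. Igf2, a fetal growth factor expressed from the paternal allele, stood at 4.44 in 4a1CK and 10.34 in 4a3, with 4.2 in 4a3CK, 4.59, 5.42 and 4.45 in PH and 11.37 and 11.93 in MEF (difference -5.90). Grb10, an adaptor that dampens insulin signalling, stood at 9.62 in 4a1CK and 5.05 in 4a3, with 5.35 in 4a3CK, 5.46, 5.22 and 8.88 in PH and 10.55 and 10.75 in MEF (difference 4.57, or 1.80 as the mean over its probe sets). Cdkn1c, a cyclin-dependent kinase inhibitor, stood at 7.64 in 4a1CK and 5.51 in 4a3, with 4.55 in 4a3CK, 3.53, 3.30 and 4.93 in PH and 6.28 and 7.63 in MEF. Line 4a3 was the line nearest to the fibroblasts for Igf2, and 4a1CK for Grb10 and Cdkn1c. Sgce, a sarcoglycan, was 3.58 higher (1.80 as the mean), Igfbp6, an IGF-binding protein, 2.80 higher, and Slc38a4, an amino acid transporter, lower by a log2 difference of -2.55.

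Prl2c2, the growth-associated hormone proliferin of the placenta, had the second largest difference among the higher genes. It stood at 11.59 in 4a1CK and 4.80 in 4a3, with 4.45 in 4a3CK, 4.04, 4.04 and 5.05 in PH and 4.28 and 4.29 in MEF (difference 6.79, 111-fold). No other array passed 5.05. Prl2c genes are near-identical copies, so the member behind the signal is uncertain.

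Gut genes differed at 3 of 31 measured members of the stomach and intestine list, beside 1.32% of all genes, with a median of -0.04. Muc13, a transmembrane mucin, stood at 10.22 in 4a1CK and 6.09 in 4a3, with 5.89 in 4a3CK, 5.02, 4.85 and 6.24 in PH and 5.04 and 4.99 in MEF. Vil1, the actin bundler of microvilli, stood at 8.99 in 4a1CK and 6.27 in 4a3, with 6.02 in 4a3CK, 4.73, 4.50 and 4.85 in PH and 3.84 and 3.90 in MEF. Both were highest in 4a1CK. Tff3, a trefoil peptide of mucous epithelia, stood at 4.66 in 4a1CK and 10.64 in 4a3, with 11.54 in 4a3CK, 4.64, 4.51 and 5.89 in PH and 4.49 and 4.54 in MEF. Spink1, a trypsin inhibitor of pancreas and gut, stood at 3.61 in 4a1CK and 9.87 in 4a3, with 11.68 in 4a3CK, 4.19, 4.15 and 4.34 in PH and 3.38 and 3.33 in MEF. Tff3 and Spink1 were therefore high in both 4a3 and 4a3CK and low in 4a1CK and the reference cells.

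Of 23 bile duct and liver progenitor genes 1 was higher and 2 lower, beside 0.638% and 0.684% of all genes. Afp was among the lower genes. Cd24a, a surface glycoprotein of progenitor cells, stood at 6.19 in 4a1CK and 10.62 in 4a3, with 10.14 in 4a3CK, 11.20, 11.06 and 11.46 in PH and 9.27 and 10.37 in MEF, so 4a1CK was lowest of all arrays. Sox4, a factor of biliary and other progenitors, was 2.04 higher, or 1.23 as the mean over its probe sets. Krt19, the duct keratin, was high in both lines at 10.70 in 4a1CK and 10.05 in 4a3. The other measured duct markers were not. Krt7 was in the background range, at 3.73 in 4a1CK and 3.83 in 4a3. Sox9 stood at 4.33 in 4a1CK and 5.39 in 4a3, under both MEF arrays (5.82 and 6.01). Epcam stood at 6.45 in 4a1CK and 6.76 in 4a3, near the MEF arrays (6.61 and 6.33).

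Hox genes, which record the body position of fibroblasts, gave 1 higher and 2 lower of 34 measured, beside 0.638% and 0.684% of all genes. Hoxc8 stood at 7.61 in 4a1CK and 5.37 in 4a3, with 8.86 in 4a3CK, 3.48 to 4.50 in PH and 7.71 and 7.16 in MEF. Hoxa10 stood at 3.98 in 4a1CK and 6.90 in 4a3, with 5.96 in 4a3CK, 4.30 to 4.77 in PH and 8.85 and 7.89 in MEF. Hoxc10 differed by -2.06.

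Of 27 Myc target and ribosome biogenesis genes none reached 2, where 1.32% of all genes did, so this count says little. Their median difference was 0.33, beside -0.01 over all genes, with differences of -0.21 to 1.52 and a median of 0.56 among members at 6 or more in either line. In the cell cycle list 1 of 35 was lower, with a median of 0.05. That gene was Ccnd2, a D-type cyclin, at 7.79 in 4a1CK and 10.16 in 4a3, with 10.78 in 4a3CK, 10.41, 10.19 and 9.89 in PH and 11.04 and 10.64 in MEF, and 4a1CK was at least 2 under every other array. Of 22 genes of the Myc and Klf families, Klf12, a zinc finger repressor, was lower at 3.83 in 4a1CK and 9.23 in 4a3, with 7.07 in 4a3CK, 5.74, 5.81 and 7.50 in PH and 5.61 and 5.58 in MEF. Cycle inhibitors and p53 response genes (20 measured, median -0.33), pluripotency genes (15), hypoxia and glycolysis genes (18), cholesterol synthesis genes (16) and smooth muscle and TGF-beta response genes (22) had no member at 2 or more.

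The inflammation, interferon, Nrf2 and macrophage lists had 1 member each at 2 or more, all higher in 4a1CK, beside 0.638% of all genes. The list medians were -0.08, -0.01, -0.04 and -0.05 in that order, near the median of all genes. Among 30 inflammation genes it was Ccl7, a monocyte chemokine, at 2.23, among 19 interferon response genes Ifit2 at 3.16, and among 18 Nrf2 genes Nqo1, a quinone reductase, at 2.25. Ifi204, an interferon-inducible sensor, stood at 6.97 in 4a1CK and 3.09 in 4a3, with 2.87 in 4a3CK, 4.94, 5.55 and 3.43 in PH and 9.26 and 6.46 in MEF. Cd68, a lysosomal protein used as a macrophage marker, stood at 6.39 in 4a1CK and 4.13 in 4a3. The macrophage markers Adgre1, Csf1r and Lyz2 differed by -0.06 to 0.20 and stood at 3.50 to 4.63 in 4a1CK and 3.46 to 4.51 in 4a3, at or just above the background range. Endothelial markers (14) and stellate cell markers (13) had no member at 2 or more.

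Set beside the reference cells, the lower genes held more hepatocyte genes than fibroblast genes, and the higher genes more fibroblast genes than hepatocyte genes. A gene was called PH-high where the PH mean was at least 2 above the MEF mean and every PH array lay above both MEF arrays, and MEF-high in the reverse case. Of all genes 418 (2.44%) were PH-high and 379 (2.22%) MEF-high. Of the 117 genes lower in 4a1CK 31 (26.5%) were PH-high and 13 (11.1%) MEF-high. Of the 109 higher genes 17 (15.6%) were PH-high and 28 (25.7%) MEF-high. Both classes were thus more frequent in either direction than over all genes, and these shares describe 1 array of each line. A gene low in every cell type cannot pass 2, and 96.9% of the 226 genes reached 6 in either line against 38.8% of all genes, a difference that was not adjusted for.

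Among the 31 lower PH-high genes the median level was 4.61 in 4a1CK and 9.06 in 4a3, with 7.52 in 4a3CK, 9.93 in PH and 4.70 in MEF. The choice of these genes, low in 4a1CK against 4a3 and high in PH against MEF, largely fixes where the lines lie between the reference cells, and the same holds for the other classes, so the counts that follow are a description. In 4a1CK 15 of them lay within 1 of the MEF mean and 2 within 1 of the PH mean, whereas in 4a3 1 lay within 1 of the MEF mean and 12 within 1 of the PH mean. Among the 28 higher MEF-high genes the median level was 7.83 in 4a1CK and 4.76 in 4a3, with 5.38 in 4a3CK, 5.82 in PH and 8.87 in MEF, and 14 lay within 1 of the MEF mean in 4a1CK against 2 in 4a3. The 17 higher PH-high genes had a median of 8.32 in 4a1CK and 5.46 in 4a3, against 8.62 in PH and 5.28 in MEF, and 10 of them lay within 1 of the PH mean in 4a1CK against 1 in 4a3. The 13 lower MEF-high genes had a median of 4.65 in 4a1CK and 8.91 in 4a3, against 4.53 in PH and 9.29 in MEF. The largest group, 137 genes, separated PH and MEF by neither rule.

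Some genes set 1 line apart from all 7 other arrays. Line 4a1CK was at least 2 above every other array at 18 genes (0.105%) and at least 2 below at 11 (0.0643%), and line 4a3 at 4 (0.0234%) and 7 (0.0409%). The genes at least 2 below every other array in 4a1CK included Aga, a lysosomal hydrolase, at 3.42 in 4a1CK and 8.67 in 4a3, with 8.54 in 4a3CK, 8.05, 8.06 and 9.34 in PH and 9.01 and 8.39 in MEF. Gnai1, an inhibitory G protein subunit, stood at 3.96 in 4a1CK and 9.43 in 4a3, with 9.22 in 4a3CK, 7.65 to 8.10 in PH and 7.48 and 7.82 in MEF. Clu (clusterin, a secreted chaperone) and Zfhx3 (a large zinc finger homeobox factor), chosen after their values were seen, stood at 3.49 and 4.47 in 4a1CK and at 8.23 and 8.54 in 4a3.

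The genes at least 2 below every other array in 4a3 included Nme2, a nucleoside diphosphate kinase, at 11.32 in 4a1CK and 7.0 in 4a3, with 11.07 in 4a3CK, 11.28, 11.26 and 11.89 in PH and 11.53 and 11.46 in MEF. Nme2 is near-identical to its neighbour Nme1, so its value is uncertain. Efemp1, Cyba and Ifit2 were in the same group, and so was Aldh7a1, a dehydrogenase of lysine breakdown chosen after its values were seen, at 8.88 in 4a1CK and 5.37 in 4a3. Fam107a, an actin-associated protein, was at least 2 above all other arrays in 4a3, at 3.35 in 4a1CK and 10.58 in 4a3, with 8.18 in 4a3CK, 3.21, 3.23 and 8.39 in PH and 3.19 and 2.99 in MEF. Its PH 3 value stood 5 or more above PH 1 and PH 2.

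Sex-linked genes differed between the lines. These genes were chosen after their values were seen, and the labels give the sex of the PH mice alone. Xist, the RNA that silences 1 X chromosome in female cells, stood at 5.91 in 4a1CK and 11.48 in 4a3 by its brightest probe set, with 6.04 in 4a3CK, 5.87, 5.82 and 6.50 in PH and 8.11 and 9.43 in MEF (difference -5.57), and its other probe sets differed by -7.66 and -5.49. Eif2s3y, a Y-linked translation factor, stood at 8.71 in 4a1CK and 3.27 in 4a3, with 7.56 in 4a3CK, 7.88, 7.92 and 8.85 in PH and 7.34 and 6.08 in MEF (difference 5.44). The Y-linked Uty stood at 6.42 in 4a1CK and 3.61 in 4a3, and Kdm5d at 7.12 in 4a1CK and 4.05 in 4a3. By these brightest probe sets, 4a3 had the highest Xist of all arrays and its Y-linked genes were in the background range, whereas in 4a1CK the Y-linked genes were above that range. Other probe sets of the Y-linked genes were dim and differed less, by 0.37 for Eif2s3y, 0.59 for Uty and -0.22 and 0.04 for Kdm5d, and the mean over the probe sets of Eif2s3y differed by 2.90. The X-linked partners, by their brightest probe sets, were all lower in 4a1CK and none reached 2. Kdm6a stood at 7.24 in 4a1CK and 8.45 in 4a3, with 6.75 in 4a3CK, 7.22, 7.24 and 8.00 in PH and 6.39 and 6.91 in MEF (difference -1.21). The differences were -1.08 for Kdm5c, -0.51 for Eif2s3x and -0.51 for Ddx3x. Difference in sex chromosomes and difference in factors cannot be told apart for this pair, and 207 of the 226 genes were on autosomes or unplaced.

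**Figure D5:**
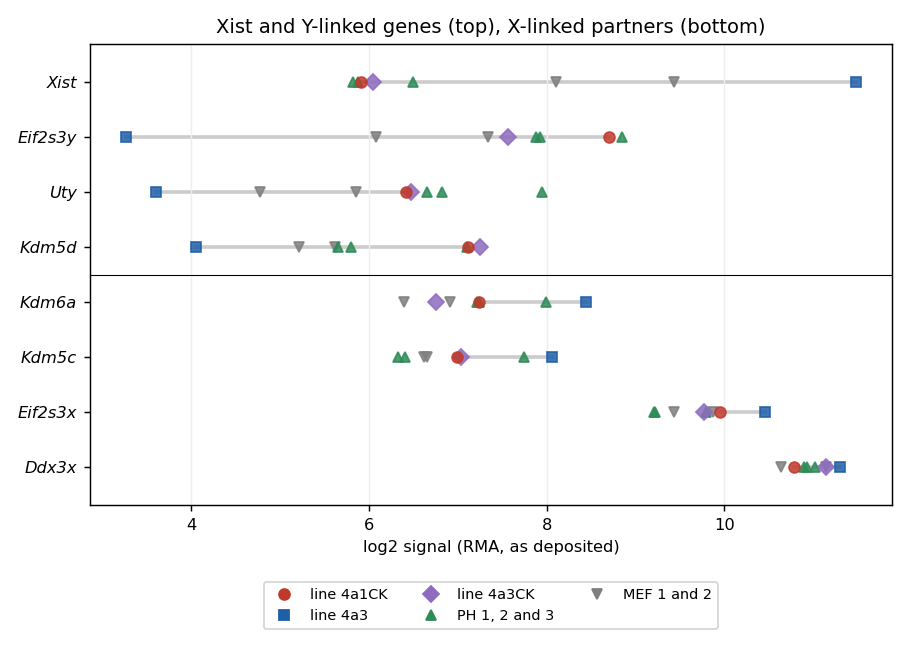
Log2 signal (horizontal axis) in each of the 8 arrays for Xist and 3 Y-linked genes (top) and 4 X-linked partner genes (bottom), by the probe set that is brightest on average, with a grey bar joining 4a1CK and 4a3. For Xist the 4a3 array (11.48) lies above all others, and for the Y-linked genes it lies below all others.

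Where a gene had several probe sets, the second brightest often gave a smaller difference. Of the 226 genes 120 had 2 or more probe sets. The second reached 2 in the same direction at 45, stayed under 2 in the same direction at 68 and went the other way at 7, at none of them by 1 or more. Cd93, a surface receptor of endothelial and myeloid cells, differed by 4.88 with its brightest probe set and by 1.89 as the mean over its probe sets. Klf12 differed by -5.40 and -2.47 in the same order, and Igf2 by -5.90 and -3.94.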

How the data were processed

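Total RNA from 3 iHep lines (1 array each), primary hepatocytes (3 arrays) and embryonic fibroblasts (2 arrays) was hybridized to Affymetrix perfect-match arrays. The authors deposited a log2 signal for each probe set, and the submitters' processing notes name RMA (robust multi-array averaging) and Partek, with versions not given in the sources used here. No further transformation was made. Precision is limited by the number of arrays.

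Of 45141 probe sets 104 are controls, 28898 have 1 gene symbol, 551 have several and 15588 have none. Symbols came from the platform annotation, and no symbol was updated. Where a gene had several probe sets (7180 genes), the brightest on average over 8 arrays stood for it. Differences were 4a1CK minus 4a3, with no test, and were counted at 2 or more. Promoters and chromosomes came from RefSeq (GRCm38.p6), and 160 genes had no RefSeq match. Counting was tested on simulated data. Python 3.11.15, pandas 2.3.3, numpy 2.4.6 and matplotlib 3.10.9 were used.

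The rule for naming genes took the 20 largest differences in each direction, the 6 largest in each direction within each class by PH and MEF level, the delivered factors, the defining markers, and for each of 28 gene lists (682 measured genes) up to 5 members with the largest differences and all at 2 or more. Clone names were not named. The pair, the lists and the rule were chosen with earlier results of these data known. Alternatives were other thresholds, array medians subtracted, quantile normalization, other choices of probe set, a filter on dim genes and leaving out each PH and MEF array. Leaving out genes on X and Y, leaving out genes that differ within MEF or PH, and classes with array medians subtracted were added after seeing the data.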

Additional observations from a re-analysis of the deposited data

Results flagged for a closer look

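Probe sets outside the gene table also differed between the lines. Of 16139 probe sets with no gene symbol or with several, 109 differed by 2 or more on the log2 scale between 4a1CK and 4a3 with a value above the background range in either line. Of these, 60 were higher and 49 lower in 4a1CK, and the differences ran from -5.69 to 5.25. They were looked at because the gene comparison does not use them, and no gene is named for them here.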

How the results depend on the processing

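The count of 226 genes (109 higher, 117 lower in 4a1CK) was 225 with array medians subtracted, of which 224 were shared, and 246 and 238 after quantile normalization of the 8 arrays and of the lines. It was 165 with the mean of all probe sets (159 shared), 214 without probe sets marked as binding several transcripts, 219 with genes at 6 or more in either line, 207 without genes on X and Y, and 190 without genes that differ within MEF or PH. A threshold of 1 gave 1007 genes (562 higher, 445 lower) and of 3 gave 87 (39 and 48). The second brightest probe set gave 69 genes (34 higher, 35 lower), over fewer genes. Leaving out each PH or MEF array moved the lower PH-high genes between 28 and 33 (31 with all arrays), the lower MEF-high genes between 12 and 17 (13), the higher PH-high genes between 14 and 20 (17) and the higher MEF-high genes between 25 and 32 (28), and subtracting array medians gave 28, 14, 16 and 29.

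List medians moved by less than 0.69 under array medians, quantile normalization and the mean of all probe sets. That limit was taken as the spread of a difference between arrays of the same cell type. Across genes, the standard deviation of such a pair was smaller, at 0.16 to 0.57, so the limit is loose for a list median. Every list median but that of secreted plasma proteins was itself smaller than 0.69, so the check says little about them. The median of cell cycle genes went from 0.05 to -0.04 after quantile normalization of the 8 arrays. That of imprinted and oncofetal growth genes went from 0.43 to 0.19 with the mean of all probe sets. With only genes at 6 or more in either line, which leaves fewer genes, the medians were -5.02 for secreted plasma proteins, -1.68 for acute phase and complement, 1.21 for amino acid, urea and sugar metabolism, 1.20 for stomach and intestine genes, 0.71 for macrophage markers and -1.94 for stellate cell markers. No pluripotency gene was left by this filter. Of 101 genes covered by the naming rule and named in the text, the difference moved by less than 0.69 at all 101 with array medians subtracted and after quantile normalization, and by more at 22 with the mean of all probe sets, with no change of direction among genes at 2 or more. No paired analysis was possible because each line has 1 array and the results come from no test, although MEF and PH share numbers in the labels. Signal near the background limits the size of differences with a dim partner.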

Other observations

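Median differences by chromosome were not the same over the genome. Over 6414 genes at 6 or more in either line, the chromosome medians of 4a1CK minus 4a3 ran from -0.18 on chromosome 12 to 0.38 on chromosome 13, a range of 0.56 over the 19 autosomes. The medians were 0.29 on chromosome 11, 0.24 on chromosome 16 and 0.23 on chromosome 1. Over the same genes the range was 0.51 for 4a3CK minus 4a3 and 0.40 for 4a1CK minus 4a3CK, pairs that each share an array with this one. The medians of 4a3CK minus 4a3 were 0.28 on chromosome 11 and 0.30 on chromosome 13. Between arrays of the same cell type the range was 0.20 for PH 1 minus PH 3, 0.04 for PH 1 minus PH 2 and 0.11 for MEF 1 minus MEF 2. On the X chromosome the median was -0.04.

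Several genes outside the lists were among the largest differences. Wnt4, a secreted signalling protein, stood at 4.37 in 4a1CK and 9.51 in 4a3, with 8.10 in 4a3CK, 4.08, 4.08 and 4.80 in PH and 4.11 and 5.52 in MEF. Slco2a1, a prostaglandin transporter, stood at 4.77 in 4a1CK and 10.16 in 4a3, with 8.74 in 4a3CK, 8.16 to 8.99 in PH and 6.58 and 7.01 in MEF. Its mean over probe sets differed by -2.95, against -5.39 for the probe set used. Cavin2, a coat protein of caveolae, stood at 9.28 in 4a1CK and 4.36 in 4a3, with 4.15 in 4a3CK, 7.20 to 8.26 in PH and 9.78 and 9.23 in MEF. Colec12, a scavenger receptor, stood at 7.91 in 4a1CK and 3.32 in 4a3, with 3.16 in 4a3CK, 5.56 to 6.29 in PH and 8.87 and 8.58 in MEF.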
